A study of Homo sapiens with 6 samples.

Results

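The EGFR family ligand genes and the gene of their main sheddase, the metalloprotease ADAM17, were followed in PC9ER, an established line of human lung carcinoma of the non-small cell kind. Its growth depends on the receptor EGFR, yet it withstands gefitinib, a drug that blocks the EGFR kinase. The genes were chosen by name: AREG, EREG, HBEGF, TGFA, BTC, EPGN, EGF, NRG1, NRG2 and ADAM17, and all 10 have a row among the 15376 coding genes measured. RNA sequencing libraries came from 3 control samples given the vehicle DMSO and 3 samples given 1 µM gefitinib for the final 6 h. One protocol text is given for all samples. It names growth in medium with 10% fetal calf serum, 72 h of vehicle in place of a Notch inhibitor, and an overnight period without serum. It does not say whether control cells also went without serum, so an effect of serum and one of gefitinib cannot be told apart. The labels name 1 cell line and do not say that the replicates were separate cultures, so p-values measure only the spread between these libraries, which may be technical.

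Ligands of the EGFR family are made as precursors anchored in the plasma membrane, and a protease must cut most of them free before they reach receptors on other cells. ADAM17 is the main sheddase of amphiregulin (AREG), epiregulin (EREG), heparin-binding EGF-like growth factor (HBEGF) and transforming growth factor alpha (TGFA), whereas betacellulin (BTC) and EGF are cut mainly by ADAM10. EGF, AREG, TGFA and epigen (EPGN) bind EGFR, while HBEGF, EREG and BTC also bind ERBB4, and the neuregulins NRG1 and NRG2 bind ERBB3 and ERBB4. In carcinoma cells several of these ligand genes are themselves targets of EGFR and MAP kinase signalling, which closes an autocrine loop.

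Depth ranged from 13674237 to 38581498 reads in coding genes per library, and the deposited values, called normalized read counts here, are those reads scaled to one common total. Principal component 1 of the log2 values (71.4% of the variance) separated the groups, while replicate 1 of both groups lay below 0 on component 2 (9.59%), at -38.1 and -23.3 against 8.86 to 28.8 for the other libraries. Of 10 epithelial markers all had reads, with a summed normalized count of 95679 to 134482 in control and 81048 to 84287 in gefitinib libraries. The keratin genes KRT7 (21846 to 11556), KRT8 (22399 to 15577), KRT18 (15976 to 10078) and KRT19 (19820 to 9013) were called lower. So were CLDN4 (6432 to 3709, limma adjusted p = 0.00244) and CDH1 (12180 to 10609, 0.0364). EPCAM was called higher (9764 to 12017, limma adjusted p = 0.0106). CLDN7 (4169 to 3631), ESRP1 (5574 to 5936) and MUC1 (142 to 217) did not pass the test. The sum moved with the group, and its part in the results was not tested. Fibroblast markers summed to 32.4 to 71.4 in control and 47.6 to 68.0 in gefitinib libraries, with no value for 5 of 10 (DCN, LUM, PDGFRA, FAP and POSTN). COL1A1 made up most of that sum, at means of 52.3 and 54.3. Blood markers summed to 69.5 to 88.2 and 45.0 to 63.8, with PTPRC at means of 0.235 and 0.441 and LYZ at 23.0 and 24.4. Within this list CD14 was called higher, from 0.322 to 7.12 on average (limma adjusted p = 0.000893), and ITGAM lower, from 46.4 to 15.1 (0.00768). Among 6 lung lineage markers, summing to 29.6 to 36.7 and 31.7 to 40.3, NKX2-1 and SFTPA1 had no value, SFTPC had means of 0.235 and 0.156, and the highest, NAPSA, had 21.2 and 15.6, so these genes were scarce or absent in the labelled lung line. In bulk RNA, fewer cells with a transcript and less of it per cell cannot be told apart.

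The 4 ligand genes that passed the test are shown by the 250 bases before their RefSeq start sites, since a pair rose and a pair fell. These starts can differ from the GENCODE gene coordinates given below. The TGFA window lies inside the GENCODE span of TGFA, and that of HBEGF reaches into its gene's span. The windows are from RefSeq on GRCh38.p14, 5′ to 3′ on the gene's strand, at chr4:74444886-74445135 (plus strand) for AREG, chr5:140346604-140346853 (minus) for HBEGF, chr4:74364895-74365144 (plus) for EREG and chr2:70553827-70554076 (minus) for TGFA, where the first of its 2 listed starts was used. Capitals mark matches on either strand to a cyclic AMP response element (TGACGTCA), an AP-1 site (TGANTCA), a CArG box, an ETS site (CCGGAA), an EGR site (GCGGGGGCG), a TATA box (TATAAA) or a GC box (GGGCGG), which may overlap.
AREG: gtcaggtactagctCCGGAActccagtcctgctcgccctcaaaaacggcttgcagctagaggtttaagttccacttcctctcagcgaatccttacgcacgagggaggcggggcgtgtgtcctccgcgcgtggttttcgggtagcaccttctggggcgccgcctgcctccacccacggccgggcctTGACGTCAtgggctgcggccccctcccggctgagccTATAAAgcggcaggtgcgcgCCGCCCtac
HBEGF: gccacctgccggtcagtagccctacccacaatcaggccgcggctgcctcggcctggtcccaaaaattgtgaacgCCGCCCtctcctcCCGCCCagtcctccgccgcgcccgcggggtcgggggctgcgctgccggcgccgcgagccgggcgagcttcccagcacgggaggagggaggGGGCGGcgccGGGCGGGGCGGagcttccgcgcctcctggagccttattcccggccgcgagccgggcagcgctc
EREG: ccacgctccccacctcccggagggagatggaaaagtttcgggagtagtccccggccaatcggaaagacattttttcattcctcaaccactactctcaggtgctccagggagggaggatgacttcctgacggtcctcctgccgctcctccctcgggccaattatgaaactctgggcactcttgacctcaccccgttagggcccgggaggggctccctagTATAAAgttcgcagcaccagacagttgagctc
TGFA: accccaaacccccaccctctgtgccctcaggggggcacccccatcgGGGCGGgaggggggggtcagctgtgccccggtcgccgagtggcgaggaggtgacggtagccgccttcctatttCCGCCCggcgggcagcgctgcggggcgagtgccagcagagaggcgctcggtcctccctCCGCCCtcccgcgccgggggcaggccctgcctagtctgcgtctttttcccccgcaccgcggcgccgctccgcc
A cyclic AMP response element was found 58 to 65 bases before the start of AREG, in 1 of the 9 member genes with a window (all but NRG1), and in 1.65% of 35116 windows of all genes. A TATA box stood 24 to 29 bases before the start of AREG, 27 to 32 before that of EREG and 24 to 29 before that of EPGN, in 3 of 9 genes against 10.7% of all windows. Neither HBEGF nor TGFA had one there. Their windows held 5 and 3 GC boxes and were rich in G and C, at 76.4% and 75.6%, against 65.2% for AREG, 58.0% for EREG and a median of 58% over all windows. GC boxes were found in 5 of 9 genes, also in AREG, ADAM17 and NRG2, and in 42.6% of all windows. An AP-1 site was found in 1 of the 9 genes, EGF, at 11 to 17 bases before its start (6.57% of all windows), and a CArG box in 0 of 9 (1.16% of all). ETS sites were found in AREG, in the window of ADAM17 and at the second start of TGFA (14.5% of all), and an EGR site at the second start of NRG2 (4.72% of all). Members were counted per gene, with 2 windows each for TGFA and NRG2, while the background was counted per window, so the shares differ in unit. These matches are descriptions of letters in a short window.

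The comparison asks how transcripts of EGFR's own ligands and of their sheddase differ after short exposure to an inhibitor of that receptor. AREG and HBEGF rose and EREG and TGFA fell, each by more than 2-fold in mean normalized read count, while BTC, EGF, EPGN, NRG1, NRG2 and ADAM17 did not pass the test. Calls are from limma-trend on log2(value + 1) over 15229 genes, with Benjamini-Hochberg adjustment and a threshold of 0.05. At that threshold 28.3% of all tested genes were higher and 22.8% lower, 51.1% in either direction, so 2 higher and 2 lower of 10 members is no more than the share over all genes. On recovered reads edgeR called 30.5% of its tested genes higher and 30.8% lower, and 2 higher and 2 lower of the 8 members its filter kept. The members' median log2 difference was 0.16, beside 0.10 over all tested genes. The groups did not overlap for the same 4 members, 2 in each direction, against 58% of all tested genes, 32.3% higher and 25.7% lower.

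AREG, a ligand with low affinity for EGFR (ENSG00000109321, chromosome 4, 74445134 to 74455009, GRCh38), had normalized read counts of 41.6, 40.2 and 24.1 in control and 164, 108 and 118 in gefitinib replicates 1, 2 and 3. Every gefitinib library was above every control library, and the highest value was that of gefitinib replicate 1. The mean went from 35.3 ± 9.70 to 130 ± 29.7 (SD, n = 3), 3.69-fold, a log2 difference of 1.87 ± 0.29 (SE; limma adjusted p = 0.000534). In the control libraries AREG had the fewest reads of the 4 changed genes, 59, 36 and 25. Its rise ranked 631 among the 4312 genes called higher.

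HBEGF, the ligand also known as the diphtheria toxin receptor (ENSG00000113070, chromosome 5, 140332843 to 140346631), had 743, 740 and 697 normalized reads in control and 2173, 2496 and 2752 in gefitinib libraries. The control libraries lay close together and the groups did not overlap. The mean went from 727 ± 25.8 to 2474 ± 290 (SD, n = 3) and so rose 3.40-fold, by 1.76 ± 0.10 on the log2 scale (SE; limma adjusted p = 2.48e-06), the smallest p among the members, at rank 728 of the genes called higher.

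EREG, a broad-specificity ligand encoded next to AREG (ENSG00000124882, chromosome 4, 74365143 to 74388751), had 381, 350 and 338 normalized reads in control and 208, 131 and 98.9 in gefitinib libraries. All gefitinib values were lower, with a wider spread than in control. The mean went from 356 ± 22.2 to 146 ± 55.9 (SD, n = 3), 2.44-fold lower, with a log2 difference of -1.35 ± 0.25 (SE; limma adjusted p = 0.00149).

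TGFA, whose product binds EGFR alone (ENSG00000163235, chromosome 2, 70447280 to 70554193), had 3071, 2703 and 2636 normalized reads in control and 1631, 1175 and 1078 in gefitinib libraries. The groups did not overlap. The mean went from 2803 ± 234 to 1294 ± 295 (SD, n = 3), 2.17-fold lower, with a log2 difference of -1.13 ± 0.15 (SE; limma adjusted p = 0.000190). Gefitinib replicate 1 was the library nearest to control for HBEGF, EREG and TGFA, but the farthest from control for AREG. Without it the differences were 1.69 for AREG, 1.85 for HBEGF, -1.64 for EREG and -1.31 for TGFA, and without control replicate 1 they were 2.00, 1.78, -1.30 and -1.07.

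**Figure D1:**
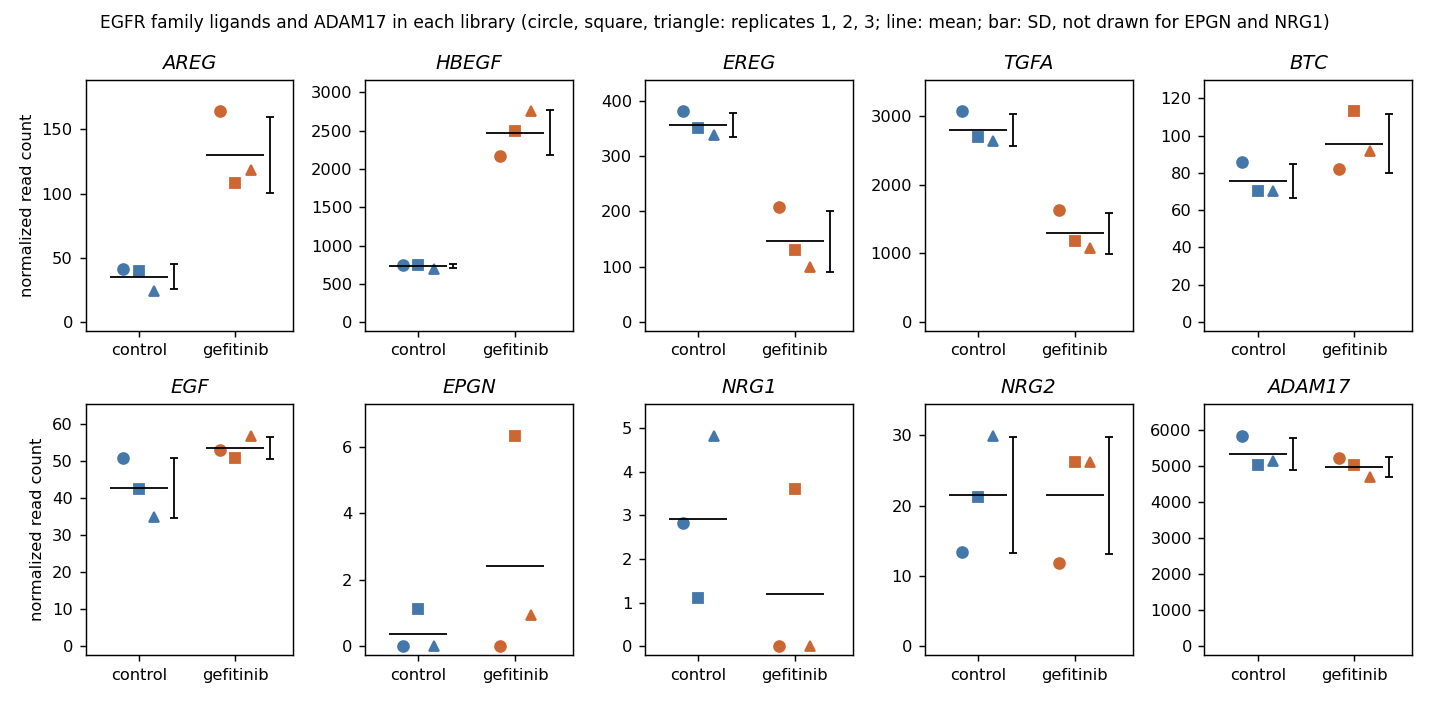
Normalized read count (linear axis from 0, its own range for each gene) of the 10 genes in the 3 control and 3 gefitinib libraries, with the mean as a line and the SD as a bar (not drawn for EPGN and NRG1). AREG and HBEGF are higher and EREG and TGFA lower in every gefitinib library, and the other 6 genes overlap between the groups.

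The remaining EGFR ligands had low values, but in control libraries BTC and EGF, at means of 75.6 and 42.6, were above AREG at 35.3. BTC (ENSG00000174808, chromosome 4, 74744759 to 74794686) had 86.1, 70.3 and 70.5 normalized reads in control and 82.0, 113 and 91.9 in gefitinib libraries, so the groups overlapped. Its log2 difference of 0.33 had a 95% interval from -0.16 to 0.82 (limma adjusted p = 0.242), which leaves room for a change of up to 1.77-fold. EGF (ENSG00000138798, chromosome 4, 109912884 to 110012266), the founding member of the family, had 50.8, 42.4 and 34.8 in control and 52.9, 50.6 and 56.7 in gefitinib libraries. The lowest gefitinib value was just under the highest control value, and the difference of 0.33 had an interval from -0.23 to 0.89 (limma adjusted p = 0.298). EPGN (ENSG00000182585, chromosome 4, 74308473 to 74315307) was near the limit of detection, with 1 read over all 3 control samples and 9 over the gefitinib samples. Of these 9 reads, 7 came from replicate 2 and 2 from replicate 3. The ratio of reads corrected for depth was 7.55, with an exact 95% interval from 1.05 to 331 that covers counting error only (limma adjusted p = 0.316).

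Neuregulin genes had fewer normalized reads than BTC and EGF, without correction for length. NRG1 (ENSG00000157168) had 2.82, 1.12 and 4.83 normalized reads in control and 0, 3.61 and 0 in gefitinib libraries, which is 10 and 4 reads in all. The read ratio was 0.335 with an exact 95% counting interval from 0.0768 to 1.16, and the limma adjusted p was 0.194. Without gefitinib replicate 2, which held all 4 reads, NRG1 was called lower (limma adjusted p = 0.0259, with 0.0259 to 0.550 over its alternatives). NRG2 (ENSG00000158458, chromosome 5, 139846779 to 140043299) had 13.4, 21.2 and 29.9 in control and 11.9, 26.2 and 26.3 in gefitinib libraries, and replicate 1 was the lowest in both groups. The log2 difference of -0.02 had an interval from -0.96 to 0.93 (limma adjusted p = 0.978), which spans 1.94-fold lower to 1.90-fold higher. The read ratio was 1.14 with an exact 95% counting interval from 0.828 to 1.58, narrower than the interval from the spread between libraries. Its sign turned in 6 of 18 alternatives, edgeR among them. An antisense gene on the opposite strand covers 5.18% of the exon bases of NRG2, and reads there are of uncertain origin because the sources used here do not say whether counting used strand. NRG4, a ligand gene of ERBB4 outside the members, had 7.05, 8.92 and 5.79 in control and 2.65, 1.81 and 2.81 in gefitinib libraries. It was called lower (limma adjusted p = 0.0154) on 24 and 10 reads. The call was lost with DESeq2 (0.158) and in the fits that left out control replicate 2 (0.0643) or gefitinib replicate 2 (0.0584). Over the 14 alternatives that kept NRG4 its adjusted p ran from 0.00648 to 0.158, and the filters on low values left it out. NRG3 was not analysed here.

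ADAM17 itself (ENSG00000151694, chromosome 2, 9488486 to 9556732) was abundant and similar in the groups. It had 5851, 5043 and 5158 normalized reads in control and 5226, 5031 and 4694 in gefitinib libraries, with means of 5350 ± 438 and 4983 ± 269 (SD, n = 3). The values overlapped, and the log2 difference of -0.10 had a 95% interval from -0.29 to 0.09 (limma adjusted p = 0.356), which spans 1.22-fold lower to 1.06-fold higher. With 18158 and 19531 reads, depth was not what limited this value. The gene IAH1 on the opposite strand covers 12.3% of the exon bases of ADAM17. IAH1 had 151 ± 14.9 and 121 ± 21.0 normalized reads, far fewer than ADAM17, and a difference of -0.33 (limma adjusted p = 0.182).

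**Figure D2:**
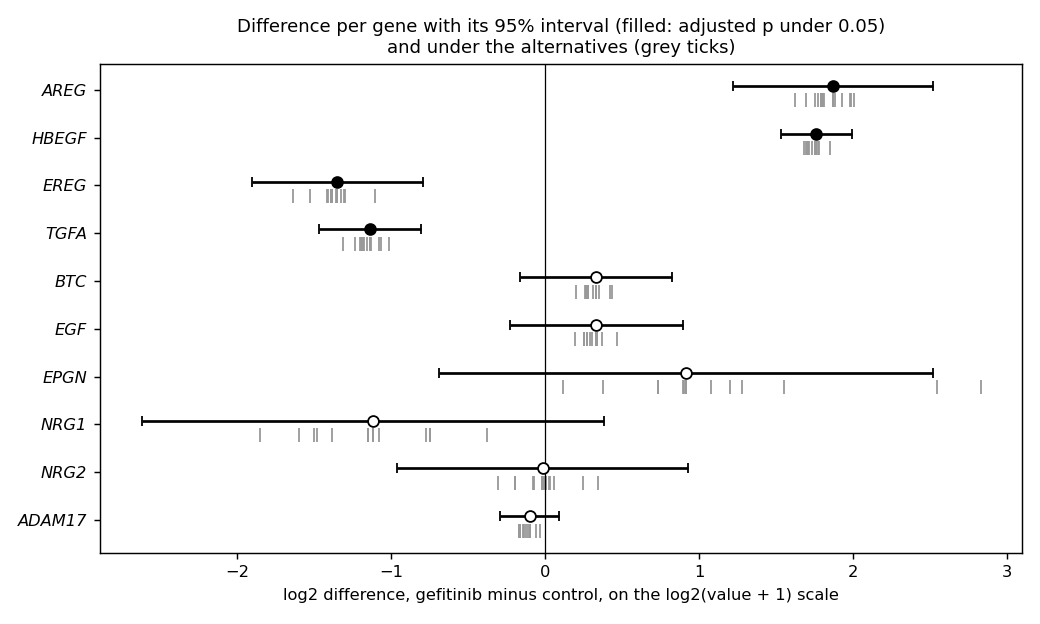
Log2 difference of each gene (circle, filled at an adjusted p under 0.05) with its 95% interval, and its values under the alternatives as grey ticks. The ticks for AREG, HBEGF, EREG and TGFA keep their side of 0, at 1.62 to 2.00, 1.68 to 1.85, -1.64 to -1.10 and -1.31 to -1.01, and the intervals of EPGN, NRG1 and NRG2 are the widest.

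Levels of different genes were compared as normalized reads per kilobase of annotated exon, and the order in both groups rests on that length. It was 10750 bases for ADAM17 and 4963 for TGFA, against 6573 and 4310 in their longest transcripts. The order with those lengths was not examined. In control libraries TGFA was the most abundant ligand transcript, at 565 ± 47.1 (SD, n = 3), followed by HBEGF at 241 ± 8.56, EREG at 62.3 ± 3.88, BTC at 26.8 ± 3.22 and AREG at 21.4 ± 5.89. ADAM17, at 498 ± 40.7, overlapped with TGFA, and BTC overlapped with AREG. EGF at 6.96 ± 1.31 overlapped with NRG2 at 4.76 ± 1.83, and NRG1 and EPGN, at 0.258 and 0.205, could not be ordered. The other neighbours in this order did not overlap.

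With gefitinib the order was different at the top. HBEGF came first, at 820 ± 96.1 normalized reads per kilobase (SD, n = 3), above ADAM17 at 464 ± 25.0 and TGFA at 261 ± 59.5, with no overlap between them. AREG, at 79.0 ± 18.0, stood above BTC at 34.0 ± 5.62 and EREG at 25.5 ± 9.77, of which the last pair overlapped. This order rests on the length correction, since without it the mean of EREG was 146, against 130 for AREG and 95.6 for BTC. EGF at 8.72 ± 0.504 was above NRG2 at 4.75 ± 1.83, and NRG2 overlapped with EPGN at 1.33 ± 1.88. NRG1, at 0.106 ± 0.184, had the lowest mean and overlapped with EPGN.

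The makeup of the ligand pool was followed within each library, which does not depend on the scaling between libraries. HBEGF held 24.7%, 26.9% and 26.4% of the summed ligand level per kilobase in control and 58.8%, 68.3% and 72.0% in gefitinib libraries. TGFA held 61.9%, 59.7% and 60.8% in control and 26.8%, 19.6% and 17.2% in gefitinib libraries. The 2 genes together made up 86.5% to 87.2% of the ligand level in control and 85.6% to 89.2% in gefitinib libraries, with TGFA the larger part in every control library and HBEGF in every gefitinib library. HBEGF over TGFA per kilobase was 0.398, 0.450 and 0.435 in control and 2.19, 3.49 and 4.20 in gefitinib libraries, a 7.70-fold higher mean ratio. The share of AREG went from 2.29% ± 0.538 to 6.41% ± 1.49 and that of EREG from 6.72% ± 0.0477 to 2.08% ± 0.815 (SD, n = 3). Without length correction the share of AREG differed by 2.21 points in place of 4.12. BTC held 2.89% and 2.76% on average, EGF 0.746% and 0.706% (differences whose sign turns without length correction), and the neuregulins 0.551% and 0.393% together. For each of HBEGF, TGFA, AREG and EREG the exact two-sided permutation p was 0.1, the smallest that 3 libraries against 3 allow, and 0.225 after Benjamini-Hochberg adjustment over the 9 ligands. Summed over the 9 ligands, the level per kilobase was 999, 913 and 874 in control and 1225, 1210 and 1266 in gefitinib libraries. The groups did not overlap, and the mean was 1.33-fold higher with gefitinib (exact permutation p = 0.1). This rests on the length correction, since the summed normalized reads without it were 4390, 3969 and 3835 in control and 4322, 4110 and 4222 in gefitinib libraries, 1.04-fold with overlap (exact permutation p = 0.5).

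**Figure D3:**
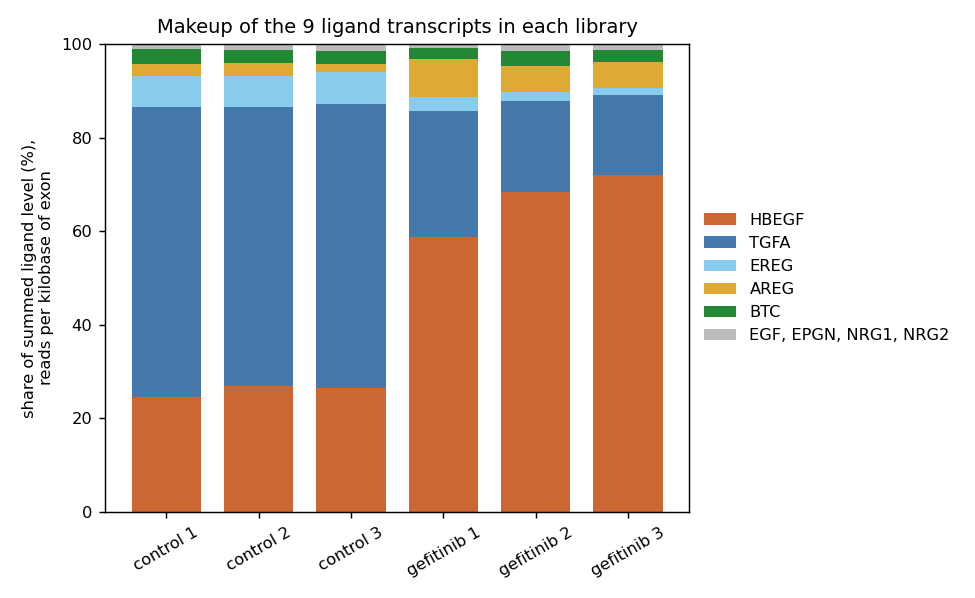
Share of each ligand in the summed ligand level (percent, reads per kilobase of exon) in each of the 6 libraries. HBEGF holds 24.7% to 26.9% of the bars of control and 58.8% to 72.0% of those of gefitinib, and TGFA 59.7% to 61.9% and 17.2% to 26.8%.

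EPGN, EREG, AREG and BTC lie in one stretch of chromosome 4, and the start site of EREG lies at -80.0 kb from that of AREG, on the same strand. These 2 neighbours moved in opposite directions. AREG over EREG in normalized reads was 0.109, 0.115 and 0.0714 in control and 0.790, 0.828 and 1.19 in gefitinib libraries, a 9.52-fold higher mean ratio with no overlap (exact permutation p = 0.1). Of the nearest measured genes on the EPGN side, the folate enzyme gene MTHFD2L had 129 ± 32.0 and 105 ± 5.68 normalized reads (SD, n = 3; limma adjusted p = 0.356). The chemokine genes CXCL2 and CXCL3 were called lower (limma adjusted p = 0.0123 and 0.0484) on few reads, 18 and 5 for CXCL2 and 13 and 2 for CXCL3. For CXCL3 the read ratio was 0.129 with an exact 95% counting interval from 0.0141 to 0.570. Leaving out control replicate 2 (0.0528) or gefitinib replicate 2 (0.0506) ended the call for CXCL2, whose alternatives gave 0.00382 to 0.115. Leaving out either of those (0.130 and 0.158), control replicate 1 (0.113) or gefitinib replicate 3 (0.163) ended that for CXCL3, whose alternatives gave 0.00645 to 0.204. Counting every kind of alternative, the call for CXCL2 ended in 4 of 14 and that for CXCL3 in 8 of 14. On the BTC side PARM1 had 1254 ± 60.6 and 1126 ± 9.69 (limma adjusted p = 0.150). The ubiquitin ligase gene RCHY1 rose by 0.50 ± 0.14 (SE, limma adjusted p = 0.0159). That call ended in 5 of 18 alternatives, with 0.00163 to 0.151 over them all. Among the 5 were the fits without control replicate 2 (0.0545), control replicate 3 (0.0501), gefitinib replicate 1 (0.0506) or gefitinib replicate 2 (0.0579). THAP6, with 319 ± 11.5 and 253 ± 30.7, did not pass (limma adjusted p = 0.0662), but was called lower in 7 of 18 alternatives, such as TMM factors (0.0419) and the fit that leaves out gefitinib replicate 1 (0.0290), with 0.0209 to 0.483 over them all.

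**Figure D4:**
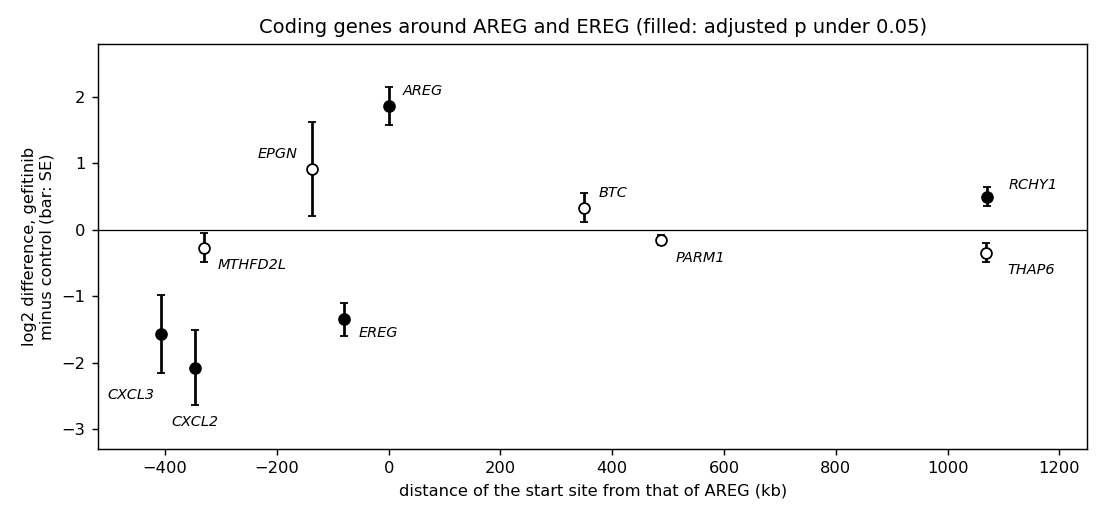
Log2 difference (gefitinib minus control, bar: SE) of the coding genes around AREG against the distance of their start sites from that of AREG in kb, filled at an adjusted p under 0.05. EREG at -1.35 stands at -80.0 kb and AREG at 1.87 at 0, and EPGN at 0.92 and BTC at 0.33 did not pass the test.

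The receptors of these ligands were measured in the same libraries. EGFR, the target of gefitinib, went from 31425 to 15759 normalized reads on average, 1.99-fold lower (limma adjusted p = 2.14e-05), and ERBB3, the kinase-impaired receptor of neuregulins, from 4444 to 9208, 2.07-fold higher (limma adjusted p = 7.32e-06). ERBB2, a partner receptor with no ligand of its own, did not pass (limma adjusted p = 0.295). ERBB4, a receptor for HBEGF, EREG, BTC and the neuregulins, had 1 and 4 reads in the groups, a ratio of 3.35 with an exact 95% counting interval from 0.332 to 165.

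Proteins that escort, mature or inhibit ADAM17 formed a list of 7 genes, of which 2 fell, 1 rose and 4 did not pass, with a median log2 difference of 0.21 beside 0.10 over all genes. With 51.1% of all tested genes called, 3 of 7 is near the background, and the number higher ran from 0 to 3 over the alternatives. TIMP3, the tissue inhibitor that blocks ADAM17, had 14207, 13868 and 13377 normalized reads in control and 6981, 6488 and 6911 in gefitinib libraries, 2.03-fold lower on average (limma adjusted p = 5.68e-06). RHBDF1, which encodes the inactive rhomboid iRhom1 that carries ADAM17 to the cell surface, had 296, 383 and 369 in control and 163, 149 and 170 in gefitinib libraries. It fell by 1.11 ± 0.15 on the log2 scale (SE; limma adjusted p = 0.000301), and the groups did not overlap. RHBDF2, the gene of the related iRhom2, had 125 ± 44.4 and 98.3 ± 23.3 (SD, n = 3; limma adjusted p = 0.431). FURIN, a convertase that removes the prodomain of ADAM17, had 342, 609 and 822 in control and 979, 1001 and 1129 in gefitinib libraries. Its rise of 0.90 ± 0.26 (SE, limma adjusted p = 0.0182) was not called once gefitinib replicate 1 (0.0564) or gefitinib replicate 3 (0.0613) was left out. It was also not called against a 1.2-fold change (0.0570), and its alternatives gave 0.00144 to 0.0613. PCSK7, the gene of another convertase, had 891 ± 192 and 1107 ± 26.9 (SD, n = 3), with a limma adjusted p of 0.0887. It was 0.0185 with control replicate 3 left out, and 0.0185 to 0.517 over its alternatives. FRMD8, which stabilizes the complex of iRhom and ADAM17, had 306 ± 101 and 415 ± 54.0 (SD, n = 3), with a limma adjusted p of 0.123. Leaving out that same library gave 0.0329, and the alternatives 0.0329 to 0.356. PACS2, a sorting protein gene linked to the recycling of ADAM17, had 517 ± 168 and 576 ± 16.1 (limma adjusted p = 0.459), and its difference of 0.21 became -0.09 with control replicate 1 left out. Control replicate 1 was the lowest library for FURIN, PCSK7, FRMD8 and PACS2.

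Of 10 genes for other proteases that can cut these ligands 6 fell, 2 rose and 2 did not pass, with a median of -0.28. Over all tested genes 22.8% were lower and 28.3% higher by the same test. Against a 1.2-fold change, for which no share over all genes is given, 2 of the 10 stayed lower and 1 higher. ADAM19, a protease that cuts neuregulins, had 955 ± 83.0 and 298 ± 20.5 (SD, n = 3) and fell 3.21-fold (limma adjusted p = 5.37e-06). MEP1B, the gene of the metalloprotease meprin beta, fell from 52.9 ± 2.49 to 12.8 ± 7.75 (limma adjusted p = 0.00476). BACE1, an aspartic protease gene whose product also cuts neuregulins, had 114, 138 and 131 in control and 501, 746 and 984 in gefitinib libraries. It rose 5.83-fold (limma adjusted p = 2.60e-05), while its relative BACE2 rose 1.27-fold (limma adjusted p = 0.00901, and 0.330 against a 1.2-fold change, with 0.00689 to 0.330 over its alternatives). ADAM10, the main sheddase of BTC and EGF, fell from 6673 to 5435 on average (limma adjusted p = 0.0353). ADAM10 was named after its value was seen, and its call ended with control replicate 2 (0.0543), gefitinib replicate 2 (0.135) or gefitinib replicate 3 (0.112) left out and against a 1.2-fold change (0.602), with 0.00760 to 0.602 over its alternatives. The count of 6 lower became 2 with control replicate 2 left out and 3 with gefitinib replicate 3 left out.

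Of 9 tested genes for the traffic of ligand precursors 6 rose, 1 fell and 2 did not pass, with a median of 0.35, beside 28.3% higher and 22.8% lower over all tested genes. Against a 1.2-fold change, again with no share over all genes to set beside it, 2 of them were higher and 0 lower. CNIH4, a cornichon-family cargo receptor gene, rose 1.69-fold (limma adjusted p = 0.000143). GORASP2, a Golgi protein gene whose product binds the tail of the TGFA precursor, rose 1.32-fold (limma adjusted p = 0.00124), AP1M2, an epithelial clathrin adaptor gene, 1.40-fold (0.00405) and TMED2, a cargo receptor gene, 1.27-fold (0.00619). Against a 1.2-fold change the calls for GORASP2 (0.106), AP1M2 (0.0803) and TMED2 (0.321) ended, in each case the highest adjusted p over the gene's alternatives, and the lowest were 0.000348, 0.000929 and 0.000316. The faller was CD9, a tetraspanin gene whose product associates with the HBEGF precursor, named after its value was seen, at -0.21 (limma adjusted p = 0.0253). Its call ended in 4 of 18 alternatives, among them the fits that left out control replicate 2, gefitinib replicate 2 or gefitinib replicate 3. With TMM factors 5 of these genes were higher and 2 lower, and with control replicate 3 left out 6 and 2. Among 28 other substrates of ADAM17, 11 rose, 7 fell and 10 did not pass, with a median of 0.28, again beside 28.3% and 22.8% of all tested genes. DESeq2 called 7 of them higher, and the count over the alternatives ran from 7 to 13. IL6R, the interleukin-6 receptor gene, had 10.6, 22.3 and 14.5 in control and 218, 249 and 227 in gefitinib libraries, and rose 14.7-fold (limma adjusted p = 8.49e-06). CSF1, the macrophage colony-stimulating factor gene, fell from 424 ± 81.1 to 87.3 ± 4.74 (SD, n = 3; limma adjusted p = 1.23e-05). TNFRSF1A, the main tumour necrosis factor receptor gene, was 2.99-fold lower (1.99e-05) and PTPRJ, a receptor phosphatase gene, 2.57-fold lower (2.61e-05). Over all 6 lists 21 of 59 tested genes rose and 18 fell, and nothing particular to these lists is read from counts set beside 28.3% and 22.8% of all tested genes.

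**Figure D5:**
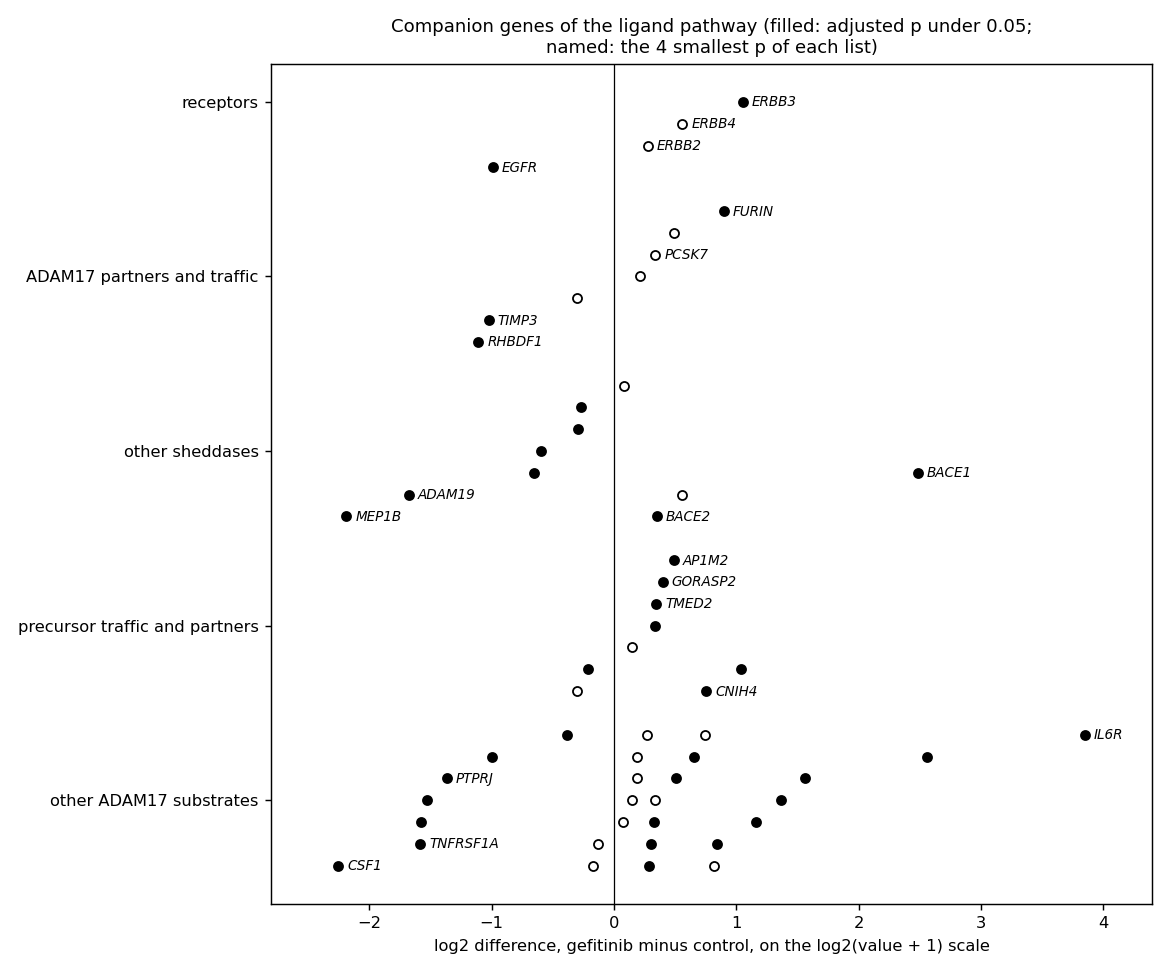
Log2 difference (gefitinib minus control) of the receptors, of ADAM17 partners, of other sheddases, of precursor traffic genes and of other ADAM17 substrates, filled at an adjusted p under 0.05, with the 4 smallest p of each list named. IL6R at 3.85 lies farthest to the right, and CSF1 at -2.25 and MEP1B at -2.19 farthest to the left.

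Genes whose profile over the 6 libraries was most like that of a member were found among 10022 genes with a mean of 100 or more, as the root mean square difference of log2 values centred on each gene's mean. The nearest to HBEGF were ANKRD40 and MED23, at 0.04 and 0.04, against a median of 0.88 over all genes compared. ANKRD40 went from 894 to 3140 normalized reads on average and MED23, a subunit gene of the Mediator complex, from 965 to 3358. The nearest to TGFA were C2orf76 and EHF, at 0.03 and 0.04 (median 0.65), and EHF, an epithelial ETS transcription factor gene, went from 5105 to 2299. The nearest to EREG were GBP3 and COA6, at 0.06 and 0.07 (median 0.79), with GBP3, an interferon-inducible GTPase gene, at 244 and 97.8. The nearest to ADAM17 were G3BP2 and CSNK2A1, at 0.01 and 0.03 (median 0.32). AREG, with a mean under 100, was outside this comparison. These likenesses rest on 6 libraries that share the contrast between the groups. The named genes were picked for the smallest difference, so a value far under the median follows from that choice and is no test.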

How the data were processed

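The values used are a signal as deposited: reads per coding gene, brought by the authors to one total, 18085800, in every library. STAR, HTSeq and GRCh38 are named in the submitters' processing notes. Dividing each library by its smallest value above 0 returned whole reads (100% of values above 0, within 0.01 read). On those reads edgeR 4.0.16 called 3707 genes higher (30.5%) and 3752 lower (30.8%) of 12167, and 2 higher and 2 lower of the 8 members its count filter kept. In the deposited all-gene table, 6 per-sample columns of counts match no label and are not used; its gene IDs and positions served as a lookup. Positions of all 10 members equal the starts in GENCODE release 29, which gave coordinates and exon lengths.

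Members and lists were chosen with earlier results of these data known. Samples were grouped by title. The test was limma-trend (limma 3.58.1 under R 4.3.3), two-sided, of log2(value + 1) over the 15229 of 15376 rows with a read, which understates the change of low genes. Lists of up to 7 genes were named in full and longer ones by the 4 smallest p. Of 63 listed companion genes 59 were tested. Same-numbered replicates deviated together (correlations of 0.164, 0.106 and 0.146 over 10022 genes; control 2 with gefitinib 3 gave 0.142, above its own number), so a replicate block was fitted as an alternative. Every pair of replicates differed by more than sampling noise. Alternatives were pseudocounts of 0.5 and 5, filters at a mean of 10 or at 1 CPM in 3 libraries, TMM and DESeq2 size factors, edgeR, DESeq2 1.42.0, limma-voom, a 1.2-fold test, the block and leaving out each library; those for the summed ligand level were chosen after seeing the data.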

Additional observations from a re-analysis of the deposited data

How the results depend on the processing

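AREG, HBEGF, EREG and TGFA kept their direction and their call in all 18 alternatives, with the highest adjusted p over limma, edgeR and DESeq2 of 0.00402, 8.07e-05, 0.00894 and 0.00191. The replicate block, which pairs same-numbered libraries, gave 2 members higher and 2 lower (AREG at 1.87, limma adjusted p = 0.00117) and changed no call among the members. Under TMM factors the median difference of all genes moved from 0.10 to 0.05 and higher genes made up 50.9% of calls in place of 55.4%. NRG2 changed sign with edgeR (0.0329 with and 0.0272 without a count filter) and limma-voom (0.0562), and ranged from -0.30 to 0.34 when single libraries were left out; the cause was not tested. Against a 1.2-fold change, a stricter test by construction, 12 of the 59 tested companion genes were higher and 11 lower, in place of 21 and 18. No share over all genes is given for that test, so these counts are not set against a background. Without correction for exon length the share differences (gefitinib minus control, percentage points) were 2.21 for AREG, 0.418 for BTC, 0.223 for EGF and -0.0434 for NRG1, against 4.12, -0.130, -0.0395 and -0.0194 with it. EPGN and NRG1 have no value in the 4 alternatives with a filter on low values. The summed ligand level was 1.04-fold higher without that correction, 1.38-fold with the longest transcript as length and 1.29 to 1.38-fold with single libraries left out, against 1.33-fold. Depth limits EPGN and NRG1, with 1 and 9, and 10 and 4 reads in control and gefitinib libraries.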
